A study of Homo sapiens with 5 samples.

Results

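Replication-dependent histone genes encode the core histones H2A, H2B, H3 and H4 and the linker histone H1, and they were taken as all genes in the counts whose symbol begins with HIST1H, HIST2H, HIST3H or HIST4H. This gave 73 of 26485 genes, with 6 for H1, 18 for H2A, 20 for H2B, 14 for H3 and 15 for H4. Poly-A RNA was sequenced from RPE1, a telomerase-immortalized human line of the retinal pigment epithelium labelled wild type, in 5 libraries. The DMSO group had 2 libraries, the 0.2 μM doxorubicin group had 2 and the 0.34 μM doxorubicin group had 1, and all cells were collected after 18 h. Doxorubicin is an anthracycline that poisons topoisomerase II and evicts histones from chromatin. The treatment text of the deposit gives far higher numbers under the same unit, and the doses of the sample labels are used here. As a single line, RPE1 holds no variation between donors, and the 0.34 μM dose has no second library.

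Replication-dependent histone mRNAs are made mainly in S phase and are the only known animal mRNAs that usually lack a poly-A tail. Their 3′ end is formed by cleavage just after a short conserved stem-loop, which is bound by the stem-loop binding protein SLBP, and the same structure directs their decay when DNA replication stops. Some of these genes also give a longer, spliced or read-through mRNA that ends at an ordinary poly-A signal, and such forms have been described in cells that differentiate or leave the cell cycle. The libraries here were made from poly-A RNA, so the counts come mainly from polyadenylated mRNAs and do not measure the stem-loop form that dominates in S phase. In bulk RNA, moreover, fewer cells in S phase and less histone mRNA per cell cannot be told apart.

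The libraries held between 23773061 and 36725345 counts on genes, and TMM normalization factors were between 0.975 and 1.04. CDKN1A, the p53 target that encodes the cell cycle inhibitor p21, was 276 ± 26.1 CPM in DMSO (TMM-normalized CPM, that is counts scaled to a common library size, SD, n = 2) and 2898 ± 500.2 in doxorubicin (SD, n = 3), with an edgeR adjusted p of 0.000768. Of the markers of the labelled cell type, the transcription factors MITF and OTX2 and the keratins KRT8 and KRT18 were expressed, while RPE65, RLBP1 and TYR were below 0.3 CPM on average in both groups. Some of these markers were higher in every doxorubicin library. BEST1 was at 0.770 ± 0.313 CPM in DMSO (SD, n = 2) and 2.83 ± 1.40 in doxorubicin (SD, n = 3), and PMEL at 0.231 ± 0.0503 and 1.15 ± 0.261, with edgeR adjusted p-values of 0.0823 and 0.0264. KRT8 had a log2 difference of 0.87 with an edgeR adjusted p of 0.0133. The 5 markers of other cell types (PTPRC, PECAM1, EPCAM, COL2A1 and MYH7) summed to between 0.343 and 0.587 CPM in DMSO and between 1.43 and 2.78 in doxorubicin, and their part in the results below was not tested. PTPRC alone was at 0.232 ± 0.0590 CPM in DMSO (SD, n = 2) and 1.72 ± 0.659 in doxorubicin (SD, n = 3), with an edgeR adjusted p of 0.0212. PECAM1 and COL2A1 were also higher in every doxorubicin library but were too low to test, and EPCAM and MYH7 overlapped between the groups. MYH7 was at 0 in both DMSO libraries.

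The histone stem-loop was found by a script in the GENCODE transcripts of 68 of the 73 genes. Of the rest, 2 are pseudogenes and 3 (HIST1H2BF, HIST1H2BG and HIST1H4F) had no GENCODE transcript. It is shown because its presence at the very end of an mRNA marks the form that poly-A selection does not capture. The 16 bases of the 4 commonest versions, and of the versions in HIST1H3E and HIST2H2AC, are written 5′ to 3′ with the loop of 4 bases in capitals.
39 genes of H1, H2A, H2B and H3: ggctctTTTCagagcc
9 genes of H4: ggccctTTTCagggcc
9 genes of H1, H2A, H2B and H3: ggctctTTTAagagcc
4 genes of H4: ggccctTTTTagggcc
HIST1H3E: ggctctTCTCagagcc
HIST2H2AC: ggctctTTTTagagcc
The H4 genes carried a stem with more G and C than the other classes in all 14 cases in which a stem-loop was found. The version with an A at the end of the loop was that of HIST1H2BC, HIST1H2BD, HIST1H2BJ and HIST1H2BK. The commonest version was that of HIST1H1C, HIST1H2AC, HIST2H2BE and HIST3H2A, so the versions did not separate the genes with many counts from the rest.

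Whether a gene can also give a polyadenylated mRNA was read from its annotation. An extended form was recorded for 21 genes, where a GENCODE transcript ran at least 100 bases past the stem-loop or lacked it, or where the RefSeq gene was longer than 1000 bases. For 46 genes the annotation ended at the stem-loop, 3 were pseudogenes and 3 had no stem-loop found. The longest transcript of HIST2H2BE went on for 1729 bases after the stem-loop, that of HIST1H2AC for 1128, that of HIST3H2A for 1110, that of HIST1H3E for 1862 and that of HIST1H4H for 1655. Each of these stretches held a poly-A signal (AATAAA or ATTAAA). The annotated mRNA of HIST1H1C, by contrast, ended 4 bases after its stem-loop, although HIST1H1C was among the histone genes with the most counts.

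Histone genes took a small share of all counts, and the share was higher in each doxorubicin library. Their total was 1108 and 1269 counts with DMSO, 2071 and 2862 with 0.2 μM doxorubicin and 3373 with 0.34 μM. Divided by all counts on genes, as CPM without TMM, this was 41.5 and 51.9 in DMSO, 78.1 and 120 at 0.2 μM and 91.8 at 0.34 μM. All 3 doxorubicin libraries lay above both DMSO libraries, and the mean was 2.07 times higher. An exact permutation test of 3 against 2 libraries cannot give a two-sided p below 0.2, so none is given for this share. The 0.2 μM libraries differed from each other by more than the DMSO libraries did.

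Most of these counts came from few genes. HIST1H2BK, HIST1H1C, HIST2H2BE, HIST1H2AC, HIST3H2A and HIST1H2BD, the 6 with the highest mean CPM, held between 70.2% and 83.0% of the counts of all histone genes in each library. Of these, 5 have an extended annotation, and the exception is HIST1H1C. Without these 6 genes the summed level of the other 67 was 12.6 CPM in both DMSO libraries, 14.6 and 20.2 at 0.2 μM and 16.9 at 0.34 μM, which is 1.37 times higher in doxorubicin. The 6 were ranked by their mean over all 5 libraries, 3 of them with doxorubicin, which favours genes that are high in doxorubicin. In DMSO, HIST1H2BD (1.19 CPM) was below the pseudogene HIST2H2BC (1.79 CPM). This choice by itself tends to raise the share of the 6 in doxorubicin and to lower the ratio of the other 67. CPM is not divided by gene length and is compared here only between libraries.

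Many of the genes were barely counted. Of the 73, 21 were listed at 0 in all 5 libraries, 52 had a count in at least 1 library, and 21 passed the low-count filter (0.377 CPM in at least 2 libraries, which is 10 counts at the median depth). Of the 21 tested genes, 13 reached this level in both DMSO libraries and in at least 2 doxorubicin libraries. Another 6 reached it in at least 2 doxorubicin libraries but not in both DMSO libraries (HIST2H2BF, HIST1H1E, HIST1H4E, HIST1H4H, HIST1H2AI and HIST1H2BN, of which HIST1H4E reached it in no DMSO library), and HIST2H2AC and HIST1H2AM reached it in DMSO alone. A gene that passed through 1 group alone had a better chance of differing, so counts over the 21 genes describe these genes alone, and they are also given for the 13. Extended genes were tested in 12 of 21 cases and genes that end at the stem-loop in 8 of 46.

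Among the H2A genes, HIST1H2AC had the largest fold change of all 21 tested. Its counts were 49 and 64 in DMSO, 223 and 348 at 0.2 μM and 284 at 0.34 μM. The level was 2.19 ± 0.451 CPM in DMSO (SD, n = 2) and 10.3 ± 3.62 in doxorubicin (SD, n = 3), a difference of 2.23 ± 0.37 on the log2 scale (SE), or 4.70-fold. The groups did not overlap, and the edgeR adjusted p was 0.0123, just short of the threshold of 0.01. The study applied this threshold to DESeq2, which gave an adjusted p of 1.98e-07 here.

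HIST3H2A, an H2A gene of the small chromosome 1 cluster, differed less. It had 63 and 101 counts in DMSO, 113 and 139 at 0.2 μM and 185 at 0.34 μM. In CPM the lowest doxorubicin library (4.37) was close to the highest DMSO library (3.95), and the edgeR adjusted p was 0.202. HIST1H2AG had 24 counts in each DMSO library, 31 and 53 at 0.2 μM and 57 at 0.34 μM, with an edgeR adjusted p of 0.217. HIST1H2AI had 14 and 8 counts in DMSO against 27, 18 and 41 with the drug, and 61.3% of its 75-base windows are shared with other histone genes, so its reads may be split between copies.

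HIST2H2AC and HIST1H2AM went the other way. HIST2H2AC had 17 and 15 counts in DMSO, 6 and 5 at 0.2 μM and 11 at 0.34 μM, a log2 difference of -1.29 ± 0.46 (SE) with an edgeR adjusted p of 0.112. HIST1H2AM had 13 and 11 counts in DMSO, 2 and 5 at 0.2 μM and 7 at 0.34 μM, a log2 difference of -1.50 ± 0.57 (SE) with an edgeR adjusted p of 0.132. In both genes every doxorubicin library was below both DMSO libraries, but neither passed the threshold. For HIST1H2AM 65.9% of 75-base windows are shared with HIST1H3J or HIST1H2AK. Only 0.711% of the windows of HIST1H2AK itself are shared with any other histone gene. The 2 groups of HIST1H2AK overlapped, at 11 and 13 counts for DMSO against 6, 13 and 19 for doxorubicin.

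Of the H2B genes, HIST1H2BK had the most counts, 348 and 463 in DMSO, 631 and 740 at 0.2 μM and 1069 at 0.34 μM. Its level was 15.7 ± 3.44 CPM in DMSO (SD, n = 2) and 28.2 ± 3.36 in doxorubicin (SD, n = 3), 1.80-fold higher by the fit. The doxorubicin libraries were all above the DMSO libraries, and the adjusted p was 0.0442 in edgeR and 0.00552 in DESeq2. Its annotated span contains the H4 gene HIST1H4I (H4C9 in RefSeq), whose reads could be counted with either where they overlap.

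HIST2H2BE had 155 and 92 counts in DMSO, 326 and 459 at 0.2 μM and 501 at 0.34 μM. This was 4.76 ± 1.63 CPM in DMSO (SD, n = 2) and 15.2 ± 3.44 in doxorubicin (SD, n = 3), and a log2 difference of 1.67 ± 0.32 (SE). The lowest doxorubicin library was far above the highest DMSO library, with an adjusted p of 0.0188 in edgeR and 8.07e-06 in DESeq2. HIST1H2BJ was low in DMSO, with 11 counts in each library, and had 27 and 70 counts at 0.2 μM and 66 at 0.34 μM. Its log2 difference was 2.16 ± 0.55 (SE), with an adjusted p of 0.047 in edgeR and 0.00647 in DESeq2, and the 0.2 μM libraries differed from each other by 1.42 on the log2 scale.

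HIST1H2BD had 37 and 25 counts in DMSO, 63 and 126 at 0.2 μM and 129 at 0.34 μM, a log2 difference of 1.64 ± 0.43 (SE). The groups did not overlap, and the adjusted p was 0.052 in edgeR and 0.00513 in DESeq2. This gene overlaps an antisense gene (H2BC6-AS1) and a pseudogene (LARP1P1) in RefSeq, and whether strand was used in counting is unknown from the sources used here. HIST1H2BC (22 and 25 counts in DMSO against 38, 45 and 62) and HIST1H2BN (8 and 11 against 15, 16 and 20) were also higher in every doxorubicin library, with edgeR adjusted p-values above 0.1. HIST2H2BF overlapped between the groups (16 and 9 counts against 10, 11 and 13). The pseudogene HIST2H2BC had 59 and 34 counts with DMSO against 29, 31 and 44, which did not overlap once scaled to CPM.

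HIST1H1C, which encodes the linker histone H1.2, had 126 and 201 counts in DMSO, 337 and 563 at 0.2 μM and 592 at 0.34 μM. Its level was 6.34 ± 2.17 CPM in DMSO (SD, n = 2) and 17.6 ± 5.30 in doxorubicin (SD, n = 3). The groups did not overlap, and the log2 difference of 1.47 ± 0.34 (SE) had an adjusted p of 0.0364 in edgeR and 0.00046 in DESeq2. HIST1H1E, which encodes H1.4, was the only other H1 gene tested. Its counts were 20 and 5 in DMSO and 10 in each doxorubicin library, so that the spread within DMSO covered the doxorubicin libraries.

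Few H3 and H4 genes had enough counts to be tested. HIST1H3E had 26 and 35 counts in DMSO, 59 and 73 at 0.2 μM and 75 at 0.34 μM, a log2 difference of 1.05 ± 0.36 (SE) with an edgeR adjusted p of 0.103. HIST1H3H overlapped between the groups, at 13 and 25 counts against 33, 18 and 57. HIST1H4H had 6 and 12 counts in DMSO, 17 and 39 at 0.2 μM and 33 at 0.34 μM, which is 0.349 ± 0.170 CPM in DMSO (SD, n = 2) and 1.06 ± 0.500 in doxorubicin (SD, n = 3). The edgeR adjusted p of HIST1H4H was 0.127. HIST1H4E was at 5 and 6 counts with DMSO against 10, 8 and 14.

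**Figure D1:**
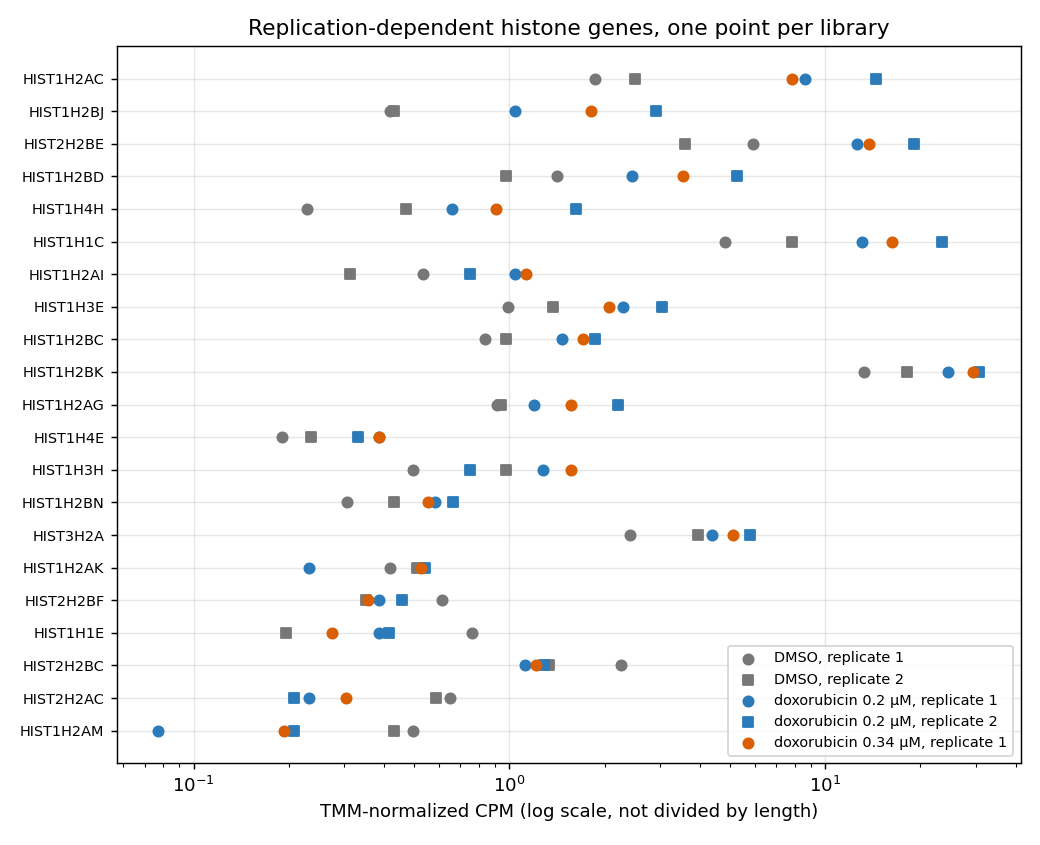
Level of the 21 tested histone genes in each library, as TMM-normalized CPM on a log scale, with 1 point per library and genes ordered by their fold change. In 14 genes all doxorubicin points lie to the right of both DMSO points, in HIST2H2BC, HIST2H2AC and HIST1H2AM all lie to the left, and in the other 4 the groups overlap.

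No histone gene passed an adjusted p of 0.01 in edgeR's quasi-likelihood test of the 3 doxorubicin against the 2 DMSO libraries, where 4.02% of all 14187 genes tested did (1.29% higher and 2.73% lower). At an unadjusted p of 0.05 the count was 12 of 21 genes, against 30.8% of all genes tested, but 4 of the 12 (HIST1H4H, HIST1H2AI, HIST2H2AC and HIST1H2AM) had passed the filter through the group where they were high. Among the 13 genes at the minimum level in both groups it was 8, against 30.9% of the 12954 genes of the whole table at that level in both groups. limma voom called 0, against 3.71% of all genes (1.12% higher and 2.59% lower). DESeq2 called 6 higher and 0 lower at an adjusted p of 0.01, against 6.37% of all genes called higher and 7.72% lower. The 6 were HIST1H2AC, HIST2H2BE, HIST1H1C, HIST1H2BD, HIST1H2BK and HIST1H2BJ. At an adjusted p of 0.05, edgeR called the same genes except HIST1H2BD, where 6.1% of all genes were called higher and 7.48% lower.

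By direction alone, 15 of the 21 genes had a positive log2 difference and 6 a negative one, with a median of 0.83, against 51.1% positive and a median of 0.013 over all genes tested. All doxorubicin libraries were above both DMSO libraries in 14 genes and below them in 3, where 24.3% and 23.4% of all genes tested did so (47.7% together). Of these, 4 of the 14 and 2 of the 3 had passed the filter only through the group where they were high. Among the 13 genes at the minimum level in both groups, 11 were positive and 2 negative (HIST1H2AK and the pseudogene HIST2H2BC), with a median of 0.89, and 10 were higher and 1 lower without overlap. Of the 12954 genes at that level in both groups 49.1% were positive, 23.4% were higher without overlap and 24.9% were lower. This restriction was added after the values were seen. HIST1H2AK, HIST2H2BF and HIST1H1E changed sign when single libraries were left out, so that 3 of the 6 negative differences rest on single libraries. The S phase mRNAs described below moved in the opposite direction, by a median of -2.73, and their part in the histone values was not tested.

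Of the 6 genes listed from general knowledge as made with a poly-A tail (HIST1H1C, HIST1H2AC, HIST1H2BD, HIST1H2BK, HIST2H2BE and HIST1H4H), all had a positive difference with no overlap between the groups. Over all genes tested, 24.3% were higher without overlap. HIST1H4H had passed the filter only through doxorubicin, the group where it was high, and the other 5 reached the minimum level in both groups. Of all genes at that level in both groups 23.4% were higher without overlap. The median of the list was 1.61, and at an adjusted p of 0.01 edgeR called 0 (1.29% of all genes higher) and DESeq2 called 5 higher (6.37% of all genes). This list shares 5 genes with the 6 highest and was compiled with earlier results known.

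The genes were then divided by the annotated 3′ end. Of the 12 tested genes with an extended form, 11 had a positive difference, and HIST2H2BF was at -0.27 with a sign that changed when a library was left out. Their median was 0.97, and in 10 all doxorubicin libraries were above both DMSO libraries (24.3% of all genes tested). Of these 12, 9 had the minimum level in both groups, and all 9 were positive with a median of 1.05, 8 of them without overlap (23.4% of all genes at that level). Summed over all 21 extended genes the level was 28.9 and 34.3 CPM in DMSO, 60.7 and 87.1 at 0.2 μM and 69.2 at 0.34 μM, a ratio of means of 2.29. Of the 8 tested genes that end at the stem-loop, 4 were positive (HIST1H1C, HIST1H2AI, HIST1H2AG and HIST1H4E) and 4 negative (HIST2H2AC, HIST1H2AM, HIST1H1E and HIST1H2AK, the last 2 with a sign that depended on single libraries), with a median of 0.34. Only 3 of these 8 had the minimum level in both groups, HIST1H1C and HIST1H2AG with a positive and HIST1H2AK with a negative difference. The summed level of all 46 was 10.8 and 13.7 CPM in DMSO, 18.0 and 29.9 at 0.2 μM and 22.3 at 0.34 μM, a ratio of means of 1.91. Without HIST1H1C the other 45 summed to 5.99 and 5.83 CPM in DMSO, 4.99 and 6.52 at 0.2 μM and 5.95 at 0.34 μM, a ratio of 0.985, so the higher sum of this class came from 1 gene. The difference between the 2 kinds of gene was not tested.

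**Figure D2:**
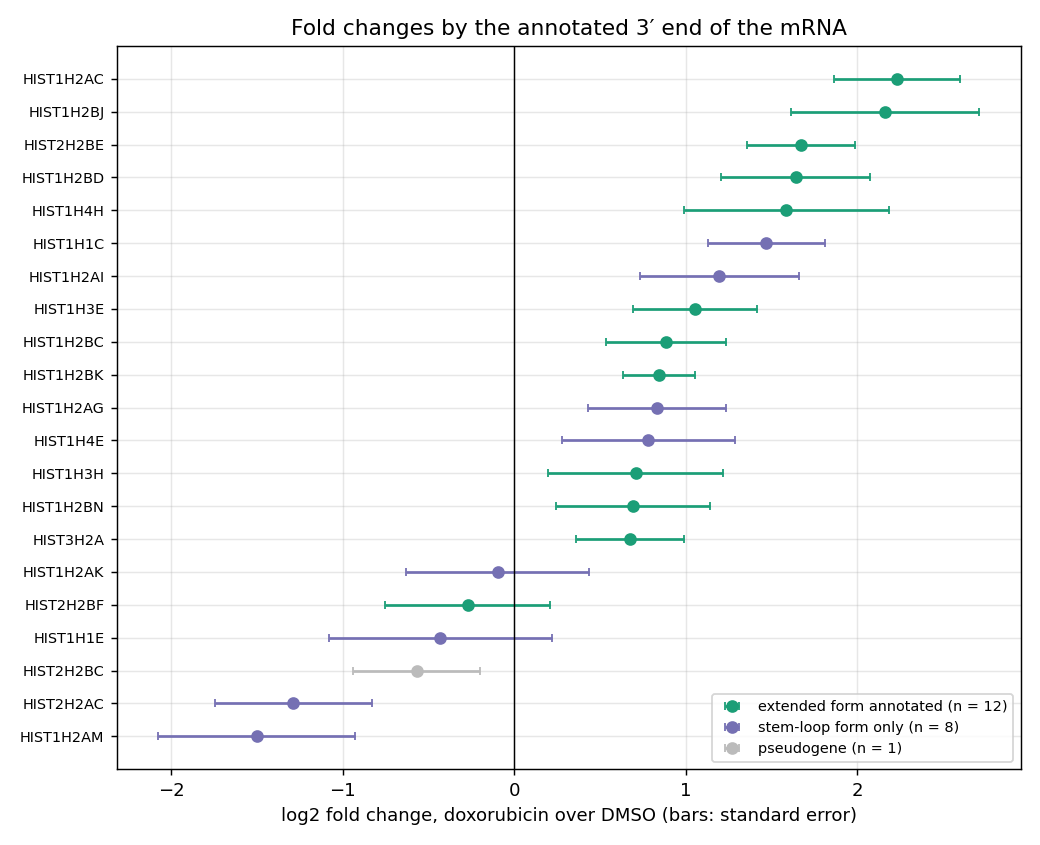
Log2 fold change of doxorubicin over DMSO for the 21 tested histone genes, with bars for the standard error and colours for the annotated 3′ end. The extended genes lie between -0.27 and 2.23 and all but HIST2H2BF are above 0, and the genes that end at the stem-loop lie between -1.50 and 1.47.

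The genes too low to test are given by the same annotation. Of the 38 untested genes that end at the stem-loop, 15 were at 0 throughout, and among the 23 with counts the mean CPM was lower in doxorubicin in 16 and higher in 7. Together they held 53 and 67 counts in DMSO, 37 and 45 at 0.2 μM and 57 at 0.34 μM, a ratio of mean CPM of 0.699. Over all untested genes of the whole table this ratio of doxorubicin to DMSO was 1.42. HIST1H2BO had 8 and 5 counts in DMSO against 2, 3 and 1. HIST1H3C had 5 and 6 in DMSO against 2, 0 and 2. HIST1H2AL had 3 and 7 in DMSO against 0, 1 and 0, and HIST1H1B, which encodes H1.5, had 3 and 4 in DMSO against 1, 0 and 0. In these 4 genes no doxorubicin library reached the DMSO level, and 6 of the 23 showed this, while HIST1H4I alone was higher in all doxorubicin libraries. The share of all untested genes without overlap was not computed, and each of the 23 held at most 36 counts over all libraries. Counts this small allow no statement about single genes, and without that share the count of 6 allows none about the class.

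The 9 untested extended genes held 3 and 2 counts in DMSO against 15, 13 and 20. Their ratio of mean CPM was 5.78, where all untested genes of the whole table gave 1.42. Most of these were in HIST1H3D, with 0 and 1 counts in DMSO, 9 and 8 at 0.2 μM and 10 at 0.34 μM. HIST2H4A, HIST2H4B, HIST2H3A, HIST2H3C, HIST2H2AA3 and HIST2H2AA4 were listed at 0 in every library. Most are near-identical copies, with all 75-base windows of HIST2H4A, HIST2H4B and HIST2H3A and 99.1% of those of HIST2H3C shared with another gene. No share was computed for HIST2H2AA3, so its windows were not compared with those of HIST2H2AA4. How reads with several equal matches were counted is unknown from the sources used here. The 0 of all these HIST2 genes is therefore not taken as a measure of expression. HIST4H4, the single gene on chromosome 12, had 2 counts in 1 of the 0.2 μM libraries, 1 at 0.34 μM and 0 elsewhere. Genes named in this and the preceding paragraph were chosen after their values were seen.

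Histone H2A and H2B genes often lie head to head and share the stretch between their starts as a promoter. The RefSeq positions gave 11 such pairs with less than 500 bases between the starts, and in 4 of them both genes were tested. The ratio of H2B to H2A counts within a library does not depend on library size, and it moved in all 4 pairs. HIST2H2BE had 9.12 and 6.13 counts per count of HIST2H2AC in DMSO, 54.3 and 91.8 at 0.2 μM and 45.5 at 0.34 μM. The mean log2 ratio was 3.03 higher in doxorubicin, the largest shift of the 4, with the extended gene up and its neighbour that ends at the stem-loop down in counts. HIST2H2AC had passed the filter through DMSO alone, the group where it was high, which made a shift in this direction more likely.

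HIST1H2BJ had 0.458 counts per count of HIST1H2AG in both DMSO libraries, 0.871 and 1.32 at 0.2 μM and 1.16 at 0.34 μM. HIST1H2BN had 0.727 and 0.846 counts per count of HIST1H2AK in DMSO, and 2.50, 1.23 and 1.05 in doxorubicin. HIST1H2BN had passed the filter through doxorubicin alone, the group where it was high, which also favoured its shift. HIST1H2BC and HIST1H2AC, which both have an extended form, shifted toward the H2A gene, from 0.449 and 0.391 counts of H2B per count of H2A in DMSO to 0.170, 0.129 and 0.218 in doxorubicin. None of the 4 ratios overlapped between the groups, and 47.7% of all single genes tested did not overlap in either direction. No share was computed for ratios of other neighbouring genes, so the 4 ratios have no like background. Both genes reached the minimum level in both groups in the pairs of HIST1H2BJ with HIST1H2AG and of HIST1H2BC with HIST1H2AC. With 10 arrangements of the libraries the smallest two-sided exact permutation p is 0.2, so no ratio was tested, and counts are not per length, so a ratio of 1 does not mean equal numbers of mRNA molecules. Among the partly tested pairs, HIST1H2AI was higher in every doxorubicin library while its neighbour HIST1H2BL had 4 and 3 counts in DMSO against 0, 2 and 1. HIST1H2AM and HIST1H2BO were both lower in every doxorubicin library.

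**Figure D3:**
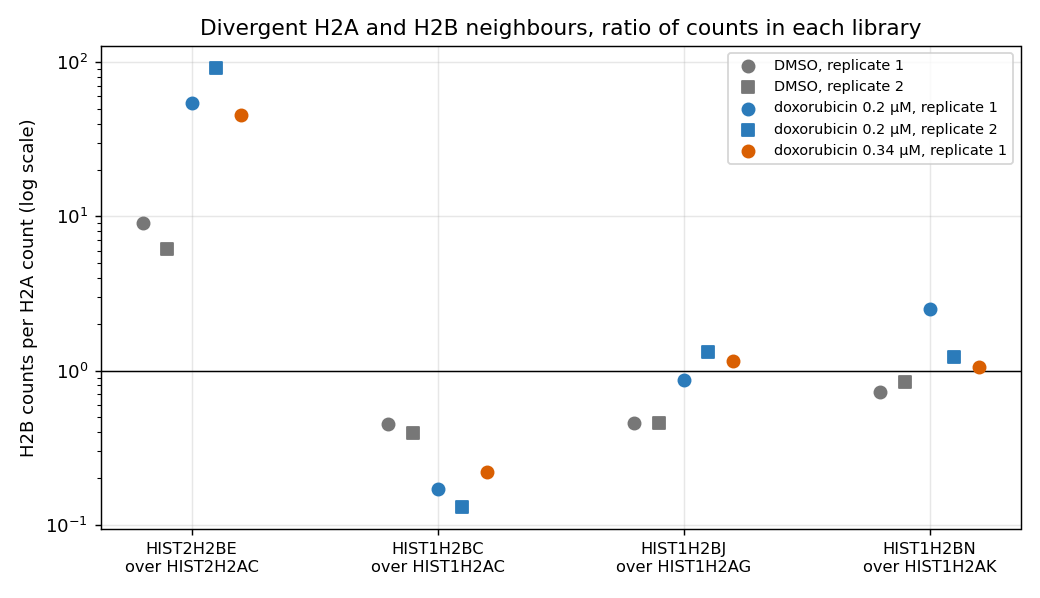
Counts of the H2B gene per count of its divergent H2A neighbour in each library, on a log scale, for the 4 pairs with both genes tested. The doxorubicin points of HIST2H2BE over HIST2H2AC lie at 45.5 to 91.8 against 6.13 and 9.12 in DMSO, and those of HIST1H2BC over HIST1H2AC lie below DMSO. HIST2H2AC passed the filter through DMSO alone and HIST1H2BN through doxorubicin alone.

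The sequences between the starts of these pairs are shown because both genes of a pair share them while the ratio of their counts moved. In the pairs of HIST1H2BJ with HIST1H2AG and of HIST1H2BC with HIST1H2AC, both genes were higher in every doxorubicin library. They come from RefSeq (GRCh38.p14) and are written 5′ to 3′ toward the H2B gene, from the base after the H2A start to the base before the H2B start. Capitals mark exact matches, on either strand, to the octamer bound by the POU factor OCT1 (ATTTGCAT or ATGCAAAT), to a TATA box (TATAAA or TTTATA) and to a CCAAT box (CCAAT or ATTGG).
HIST2H2AC to HIST2H2BE, chr1:149886683-149886917, minus strand: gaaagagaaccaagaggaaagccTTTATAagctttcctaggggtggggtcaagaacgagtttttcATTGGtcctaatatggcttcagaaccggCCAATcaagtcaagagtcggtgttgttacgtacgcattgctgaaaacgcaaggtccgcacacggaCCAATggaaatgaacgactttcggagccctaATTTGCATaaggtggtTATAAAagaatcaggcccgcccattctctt
HIST1H2AC to HIST1H2BC, chr6:26123927-26124171, minus strand: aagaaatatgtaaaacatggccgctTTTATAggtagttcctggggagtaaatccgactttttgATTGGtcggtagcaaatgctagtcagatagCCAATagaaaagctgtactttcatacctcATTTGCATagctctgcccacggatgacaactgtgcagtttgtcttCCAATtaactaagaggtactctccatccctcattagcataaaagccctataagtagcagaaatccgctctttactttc
HIST1H2AG to HIST1H2BJ, chr6:27132796-27133042, minus strand: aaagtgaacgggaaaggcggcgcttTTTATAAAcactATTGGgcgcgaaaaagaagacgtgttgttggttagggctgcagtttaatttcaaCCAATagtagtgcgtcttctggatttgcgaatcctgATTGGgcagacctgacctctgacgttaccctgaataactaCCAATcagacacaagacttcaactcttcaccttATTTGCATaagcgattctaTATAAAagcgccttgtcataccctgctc
HIST1H2AK to HIST1H2BN, chr6:27838376-27838568, plus strand: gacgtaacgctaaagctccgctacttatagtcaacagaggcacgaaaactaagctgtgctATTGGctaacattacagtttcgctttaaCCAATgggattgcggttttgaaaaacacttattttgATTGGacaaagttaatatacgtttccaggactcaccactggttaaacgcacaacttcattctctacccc
These stretches measure 235, 245, 247 and 193 bases. Each of the first 3 holds 1 octamer, and all 4 hold 3 or 4 CCAAT boxes. In the stretch of HIST2H2BE, the octamer and a TATA box lie next to the H2B start and the other TATA box lies next to the H2A start. The stretch of HIST1H2AC has its only exact TATA box next to the H2A start, and that of HIST1H2BN has neither an octamer nor a TATA box in these letters. In the stretch of HIST1H2BJ, 2 of the 3 TATA matches overlap each other on opposite strands.

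The same motifs were counted in RefSeq promoters, 300-base windows that span each gene's start, for the 65 histone genes found in that table (69 promoters). The octamer was in 39.1% of histone promoters and 1.77% of all 35116 promoters, the TATA box (TATAAA, on the strand of the gene) in 58.0% and 7.33%, and the CCAAT box (either strand) in 85.5% and 34.6%. The octamer was in 68.8% of H2A and 75% of H2B promoters, in 7.14% of H3 promoters and in none of the 6 H1 and 13 H4 promoters. CCAAT boxes were in all H1, H2A, H2B and H3 promoters and in 23.1% of H4 promoters. Divergent neighbours share much of these windows and are not separate observations. Promoters of extended genes held the octamer in 41.7% and the TATA box in 50.0%, and those of genes that end at the stem-loop in 35.7% and 64.3%.

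The doses were then compared. In a fit of 3 conditions no histone gene differed between 0.34 and 0.2 μM at an adjusted p of 0.01 in edgeR, DESeq2 or limma voom, and no gene of the whole table did either (0%). At an unadjusted p of 0.05 no histone gene differed in edgeR, where 0.155% of all genes tested did, and in DESeq2 and limma voom the shares of all genes were 0.159% and 0.0987%. With 1 library at 0.34 μM, which is assumed to vary like the other groups, such a comparison has little power. HIST1H2AC was 0.56 lower on the log2 scale at 0.34 μM and HIST1H3H 0.63 higher, with the smallest unadjusted p (0.284, edgeR) at HIST1H2AC. The 0.2 μM libraries themselves differed by 1.42 in HIST1H2BJ, 1.21 in HIST1H4H and 1.08 in HIST1H2BD, with replicate 2 higher in these 3. In other genes replicate 2 was lower, as in HIST1H3H (-0.72) and HIST1H2AI (-0.44). Within DMSO, replicate 2 differed from replicate 1 most in HIST1H1E (-1.64), followed by HIST1H3H (0.89) and HIST1H4H (0.85). HIST1H1C and HIST3H2A were each 0.70 higher and HIST2H2BE 0.70 lower in DMSO replicate 2.

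Genes that act on histone mRNAs and proteins were examined next, in lists compiled from general knowledge. The lists were chosen with earlier results of these data known. Their counts beside the share of all genes therefore describe these lists alone. None of their members was called higher in edgeR. Of 7 genes for histone gene transcription, 3 fell at an adjusted p of 0.01, against 2.73% of all genes called lower, and this count was 0 for 0.2 μM alone and 0 or 1 with single libraries left out. CCNE2, which encodes cyclin E2, was 20.2 ± 12.8 CPM in DMSO (SD, n = 2) and 1.68 ± 0.706 in doxorubicin (SD, n = 3), with an edgeR adjusted p of 0.00776. CDK2, the kinase partner of cyclin E, fell by 1.71 on the log2 scale (edgeR adjusted p = 0.00163), and CASP8AP2, the FLASH protein of histone locus bodies, fell by 1.34 (edgeR adjusted p = 0.00329). NPAT, the histone gene coactivator that cyclin E and CDK2 phosphorylate, was at 32.1 ± 4.59 CPM in DMSO (SD, n = 2) and 19.5 ± 3.06 in doxorubicin (SD, n = 3) and did not pass, with an edgeR adjusted p of 0.0564.

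In the list for 3′ end processing 13 of 16 genes had a negative difference and 2 fell (2.73% of all genes), a count that was 0 for 0.2 μM alone and 0 or 1 with single libraries left out. SLBP had 63.4 and 81.7 CPM in DMSO, 32.2 and 33.0 at 0.2 μM and 30.1 at 0.34 μM. All doxorubicin libraries were less than 0.6 times the lower DMSO library, and SLBP fell by 1.19 on the log2 scale (SE 0.16, edgeR adjusted p = 0.00692). SRRT, which encodes the cap-associated protein ARS2, fell by 0.98 (edgeR adjusted p = 0.00654). ZNF473 of the U7 snRNP complex, with a log2 difference of -1.22 and an edgeR adjusted p of 0.0275, did not pass. Of the 6 genes for histone mRNA decay none passed, and the exonuclease ERI1, which trims the stem-loop, had a log2 difference of -1.29 with an edgeR adjusted p of 0.0116. DESeq2 called 6 lower among the 16 processing genes and 2 among the 6 decay genes, against 7.72% of all genes.

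All 11 histone chaperone and histone acetylation genes had a negative difference and 6 fell (2.73% of all genes), against 2 for 0.2 μM alone and 0 to 2 with single libraries left out. The subunits CHAF1B and CHAF1A of chromatin assembly factor 1, which deposits H3 and H4 at replication forks, fell by 2.82 (edgeR adjusted p = 0.0015) and 2.28 (edgeR adjusted p = 0.00163). ASF1B, an H3 and H4 chaperone, fell by 2.36 on the log2 scale, and NASP, which holds the soluble pool of H3 and H4, fell by 1.65. HAT1, which acetylates new H4, fell by 1.45, and its partner RBBP7 fell by 1.06. By contrast, ASF1A, the importin IPO4 and NAP1L1 were within 0.2 of 0 and did not pass.

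Replication-independent histone variants did not share 1 direction, with 4 of 10 tested genes positive and 6 negative, and 2 fell (2.73% of all genes), against 2 for 0.2 μM alone and 2 or 3 with single libraries left out. H2AFX, the H2A variant that is phosphorylated at DNA breaks, was at 158 and 228 CPM in DMSO, 35.1 and 33.2 at 0.2 μM and 30.0 at 0.34 μM. It fell by 2.56 on the log2 scale (edgeR adjusted p = 0.000972), and CENPA, the H3 variant of centromeres, fell by 4.92 (edgeR adjusted p = 0.000694). H2AFZ had a log2 difference of -1.77 and an edgeR adjusted p of 0.0276, with 144 and 370 CPM in the DMSO libraries. H3F3B, which encodes H3.3 in all phases of the cell cycle, was at 381 ± 88.3 CPM in DMSO (SD, n = 2) and 382 ± 31.9 in doxorubicin (SD, n = 3). H1F0, the linker histone of cells that have stopped dividing, was at 0.996 ± 0.910 CPM in DMSO (SD, n = 2) and 1.44 ± 0.450 in doxorubicin (SD, n = 3), with an edgeR adjusted p of 0.625. H3F3A, a gene with many processed copies, had 0 to 2 counts per library.

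Of 12 S phase mRNAs, 10 fell (MCM3, MCM4, MCM5, MCM6, CDC6, CDC45, GINS2, RRM2, UHRF1 and E2F1), with log2 differences between -3.45 and -2.02. Over all genes 2.73% were called lower, and the count of this list was 2 for 0.2 μM alone and 0 to 9 with single libraries left out. Their sum was 918 and 1746 CPM in the DMSO libraries, 229 and 295 at 0.2 μM and 186 at 0.34 μM. MCM2, a subunit of the replicative helicase that also binds H3 and H4, had a log2 difference of -2.27 and an edgeR adjusted p of 0.0108. The second DMSO library was 0.95 higher than the first by the median of this list, while the histone genes differed by a median of 0.21 between the same libraries. Over the 6 lists 23 genes fell in edgeR, a count that was 16 without DMSO replicate 1, 2 without DMSO replicate 2, 6 without replicate 1 of 0.2 μM, 6 without the 0.34 μM library and 3 without replicate 2 of 0.2 μM. Each of these settings also leaves fewer libraries to fit.

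**Figure D4:**
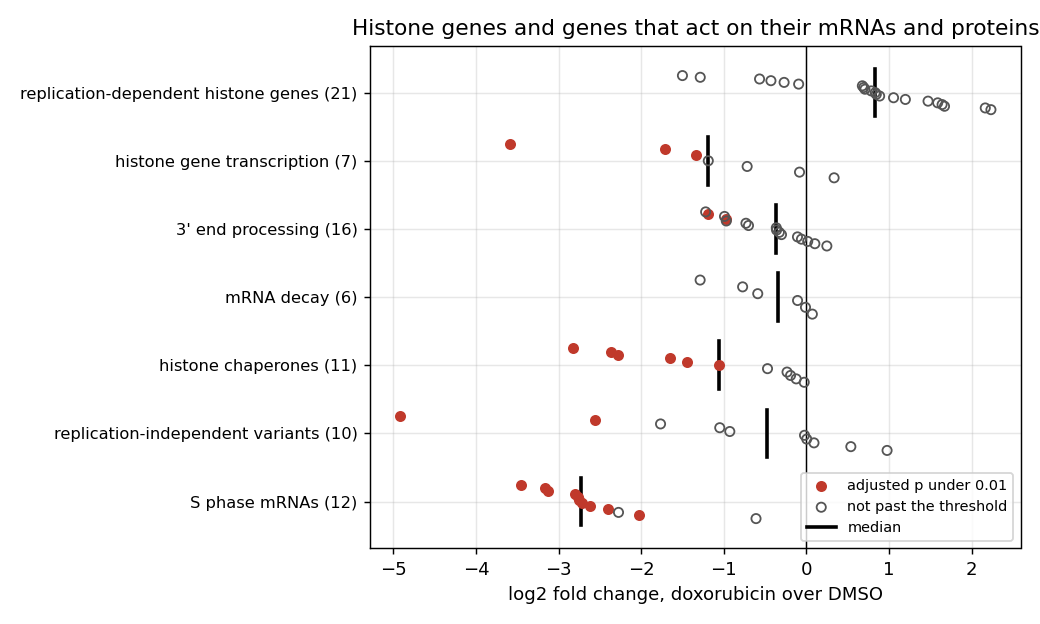
Log2 fold change of doxorubicin over DMSO for each tested gene of the histone genes and of 6 lists around them, with the number of genes in brackets, the median as a bar and filled points for an edgeR adjusted p under 0.01. The median is 0.83 for the histone genes and below 0 in each of the other lists, down to -2.73 for S phase mRNAs.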

How the data were processed

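Per the labels and the study's methods, poly-A RNA was made into libraries with a stranded kit, sequenced as paired reads of 75 bases and mapped to hg38 with STAR, and the authors deposited raw counts per gene from featureCounts (Rsubread). For versions, the strand setting and the handling of multi-mapping reads, no source used here states them. The authors' own table of DESeq2 comparisons (fold changes and p-values) was not used.

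The main test was the quasi-likelihood test of edgeR 4.0.16 (R 4.3.3), on 3 pooled doxorubicin against 2 DMSO libraries, with TMM, the default filter (minimum count 10, minimum total 15; 14187 of 26485 genes) and a Benjamini-Hochberg adjusted p of 0.01, the study's threshold. The study itself applied that threshold to DESeq2. Standard errors are the log2 fold change over the root of the F statistic. Alternatives were DESeq2 1.42.0, limma 3.58.1 (voom), other normalizations, no filter, an adjusted p of 0.05, 0.2 μM alone, leaving out each library and a replicate block. The pipeline was tested on simulated data. The libraries are biological replicates per the study's methods. Replicates were compared by a chi-square of their counts, 117.2 per degree of freedom in DMSO and 75.3 at 0.2 μM, so none is a copy of another. The precision rests on total counts of 23773061 to 36725345 per library.

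Named genes were those past the threshold, the 6 highest histone genes, a list of histone genes known to be polyadenylated, the 3 largest differences among genes with mean log2 CPM no lower than 1, and set examples of each list. All members and lists were chosen with earlier results of these data known. All 73 symbols matched RefSeq. Genome sequence of the build used by the authors was not used here, so stem-loops come from GENCODE transcripts and promoters from RefSeq.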

Additional observations from a re-analysis of the deposited data

How the results depend on the processing

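The count of histone genes called higher depended on the tool and the threshold. It was 0 in edgeR, 6 with DESeq2, 2 without the filter on low counts (HIST1H2AC and HIST2H2BE), 5 at an adjusted p of 0.05 and 4 with a replicate block on the DMSO and 0.2 μM libraries (HIST1H2AC, HIST1H1C, HIST2H2BE and HIST1H2BJ), and 0 under limma voom, other normalizations, 0.2 μM alone and each library left out. None was called lower under any setting. Deviations of same-numbered libraries correlated across 14187 genes (r = 0.528), but there are only 2 such pairs and the labels give no shared culture or day, so the numbers were not taken as a pairing. The block called 4.18% of all genes higher and 4.82% lower. No share of all genes is given without the filter, for 0.2 μM alone or with single libraries left out. The counts of histone genes and of the lists in those settings therefore have no background beside them. The median log2 difference of the histone genes was 0.49 without the filter and between 0.79 and 0.98 with single libraries left out. The genes called lower over the 6 other lists numbered 23, against 6 for 0.2 μM alone and between 2 and 16 with single libraries left out. The share of histone counts was 2.12 times higher in doxorubicin by TMM against 2.07 by total counts.

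Of 248 alternative values of single histone genes 4 were reversed, all with a library left out. HIST2H2BF ranged from -0.63 to 0.17 and HIST1H1E from -1.11 to 0.84, both positive without DMSO replicate 1, and HIST1H2AK from -0.27 to 0.20, positive without DMSO replicate 2 (0.033) and without replicate 1 of 0.2 μM. H3F3B reversed with DESeq2 (-0.0090), with RLE normalization (-0.0058), without DMSO replicate 1 and without replicate 2 of 0.2 μM (-0.057), with a range of -0.22 to 0.24 over the libraries left out, and H1F0 without DMSO replicate 2, with a range of -0.19 to 2.02. The cause was not tested. With an extended form recorded from GENCODE alone, an alternative chosen after seeing the data, 10 of 11 tested extended genes were positive. Counts of a few reads per library limit 52 of the 73 genes, and poly-A selection limits all of them.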
